A study of Mus musculus with 15 samples.

Results

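The mouse mitochondrial genome is a small circle of DNA that carries 37 genes, and the deposited tables list all 37, out of 56953 genes, as rows on chromosome MT. They were taken by that position alone, although earlier results of these data were known when this set was chosen. Of the 37, 13 code for proteins, 2 for the ribosomal RNAs of the mitochondrial ribosome (mt-Rnr1 for the small subunit and mt-Rnr2 for the large) and 22 for transfer RNAs. The 13 proteins are core subunits of the respiratory chain: 7 belong to complex I (mt-Nd1 to mt-Nd6 and mt-Nd4l), 1 to complex III (mt-Cytb), 3 to complex IV (mt-Co1 to mt-Co3) and 2 to the ATP synthase, complex V (mt-Atp6 and mt-Atp8). The circle is transcribed from both strands as long precursors by the polymerase Polrmt with the factors Tfam and Tfb2m, and the precursors are cut into separate RNAs largely at the transfer RNAs that sit between them. All other subunits of these complexes, and every protein of the mitochondrial ribosome, come from nuclear genes, so respiration needs both genomes. In skeletal muscle, myofibres are rich in mitochondria, whereas muscle stem cells, or MuSCs, which repair fibres after injury, are known to hold few in their resting state.

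RNA was sequenced in bulk from 15 libraries of mice of strain 129 and genotype WT, labelled male and 10 weeks old. The labels state 10 mice, of which the titles name 9. MuSCs were obtained by biopsy from mice 5, 6 and 11 after autologous MuSC transplantation, from an area that had received no cells (after 5, 6 and 11), and from the same mouse numbers before it (before 5, 6 and 11). Quadriceps femoris muscle came from 6 transplanted mice (transplanted 4, 14, 94, 5, 6 and 11) and 3 mice with sham surgery (sham 3, 192 and 12). The labels give a treatment of transplantation to the sham libraries too, so those were told apart by their titles. The labels name no transgene, mutation or drug in any group, and they do not state how the MuSCs were purified. The mice are numbered in the titles, so libraries of a group were taken as separate animals. The muscle libraries were deposited in 2 tables, called here the 2-sham table (transplanted 4, 14 and 94, sham 3 and 192) and the 1-sham table (transplanted 5, 6 and 11, sham 12), and the MuSC libraries in 1 further table. Within the MuSC table, the library names are spelled in 2 ways, number first (after 5, before 5 and before 11) or letter first (after 6, after 11 and before 6).

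Libraries held 17.1 to 23 M estimated counts and 17873 to 20284 detected genes. Pax7 and Myod1, transcription factors of MuSCs, were present in all 6 MuSC libraries, and Myod1 reached 680.3 to 1520.4 library CPM (counts scaled by the deposited library total) there and 15.6 to 26.4 in muscle. The 9 MuSC markers together summed to 2536 to 4943 library CPM in the MuSC libraries and 2007 to 2711 in muscle, which overlap. Between MuSCs before and sham muscle, 7 of the 8 tested were called lower in muscle and 1, Des, which myofibres also express, was called higher. Of all genes in that comparison, 35.1% were called lower in muscle and 33.4% higher. Markers of mature myofibres summed to 127807 to 153475 library CPM in muscle and 1844 to 10762 in the MuSC libraries. Sex-linked genes went against the label of male: Xist, which is expressed from the inactive X chromosome of females, stood above 10 library CPM in 14 of 15 libraries, and 4 genes of the Y chromosome summed to at most 1.22 library CPM in any library.

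The transfer RNA genes gave no signal. All 22 were listed at 0 in all 15 libraries, although they lie between genes that were among the most abundant in the tables. They are 59 to 75 bases long, and the whole of the shortest and of the longest is shown here because length is the feature that sets these rows apart (GENCODE transcripts, build GRCm38, the same MT coordinates as in the deposited tables).
mt-Ts2 (a serine transfer RNA, MT:11613-11671, plus strand): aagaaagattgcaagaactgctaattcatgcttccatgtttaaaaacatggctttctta
mt-Tl1 (a leucine transfer RNA, MT:2676-2750, plus strand): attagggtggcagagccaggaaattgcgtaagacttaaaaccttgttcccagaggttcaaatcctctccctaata
The difference between gene length and the effective length in the tables, which is close to the mean length of the sequenced fragments, was 229 to 245 bases in the MuSC libraries, 259 to 267 in the 1-sham table and 282 to 295 in the 2-sham table. The fragments were thus several times longer than any transfer RNA, and the part of this in the 0 of these rows was not tested. The other 15 members, all 13 protein-coding genes and both ribosomal RNAs, were measured in all 15 libraries, and all 15 passed the filter on low counts in each comparison.

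Several members share sequence with another row, which bears on how their counts can be read. Of 20 nuclear genes that matched a member over at least 100 bases, 7 did so at 99% identity or more, all on chromosome 1: Gm29216 (mt-Co1), Gm28661 (mt-Co2), Gm28437 (mt-Co3), Gm10925 (mt-Atp6), Gm28438 (mt-Nd3), Gm10222 (mt-Nd4l) and Gm28439 (mt-Nd4). Such copies are pieces of mitochondrial DNA that were inserted into the nuclear genome. Of the 7, 5 matched over all of their matched length without a mismatch, and the other 2 differed at 1 base each. Both differing bases are shown, in capitals, in the stretch around them. Bases of each line are numbered from 1 at the first base of the gene that the line names.
mt-Nd3, bases 1 to 60 (MT:9459-9518, plus strand): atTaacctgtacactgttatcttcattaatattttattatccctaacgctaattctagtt
Gm28438, bases 1 to 60 (chromosome 1): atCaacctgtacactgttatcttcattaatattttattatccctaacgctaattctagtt
mt-Co1, bases 1063 to 1122 (MT:6390-6449, plus strand): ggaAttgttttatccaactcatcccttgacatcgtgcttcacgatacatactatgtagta
Gm29216, bases 10 to 69 (chromosome 1): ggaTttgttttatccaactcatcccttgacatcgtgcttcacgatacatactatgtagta
The substitution was T3C in mt-Nd3 and A1066T in mt-Co1, with positions counted in the mitochondrial gene, and Gm28438 and Gm29216 were otherwise identical to their member over 345 and 483 matched bases. mt-Co2 and Gm28661 were identical over 681 bases and differed only in their ends, where mt-Co2 has 3 further bases, in capitals.
mt-Co2, bases 642 to 684 (MT:7654-7696, plus strand): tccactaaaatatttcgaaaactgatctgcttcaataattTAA
Gm28661, bases 642 to 681 (chromosome 1): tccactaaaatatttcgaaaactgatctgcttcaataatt
Members also overlap each other, mt-Atp8 with mt-Atp6 by 43 bases, mt-Nd5 with mt-Nd6 (on opposite strands) by 14 and mt-Nd4l with mt-Nd4 by 7. The end of mt-Atp8 shows the longest of these, with the bases shared with mt-Atp6 in capitals.
mt-Atp8, bases 142 to 204 (MT:7907-7969, plus strand): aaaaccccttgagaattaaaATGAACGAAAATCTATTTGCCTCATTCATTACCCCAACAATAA
The use of strand in counting is not stated in the labels or headers.

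The deposited counts were split between a member and its copy very unevenly, and the split differed by gene and by library. For mt-Co2, the row on MT held 0.31 to 1.51% of the pair's counts in the 6 MuSC libraries and 15.5 to 25.5% in the 9 muscle libraries, the rest standing on Gm28661. For mt-Co1, whose copy covers only part of the gene, the MT row held 92.5 to 100% in all 15 libraries, and for mt-Nd4 it held all counts, since Gm28439 was listed at 0 throughout. In the MuSC libraries the split followed the spelling of the library names. The MT row of mt-Co3 held 16.2 to 30.9% in the letter-first libraries and 3.2 to 10.9% in the number-first libraries. The MT row of mt-Atp6 held 19.8 to 32.7% in the letter-first libraries and 7.97 to 12.4% in the number-first libraries, and that of mt-Nd3 held 37.1 to 48.4% in the letter-first libraries and 13.6 to 23.3% in the number-first libraries. For 4 of the 6 pairs with counts on both rows (mt-Atp6, mt-Co3, mt-Nd3 and mt-Nd4l) every letter-first library stood above every number-first library, for mt-Co1 every letter-first library stood below, and for mt-Co2 the ranges overlapped. The letter-first libraries also had fewer detected genes (17873 to 18369, against 19747 to 19900), and the part of any of this in the splits was not tested. Because reads from identical sequences cannot be told apart, values below are given with the copies' counts added to their member unless "as deposited" is written, a choice made after the splits were seen. Values of nuclear lists and markers are as deposited. The other 13 matching nuclear genes, at under 99% identity, held 0 to 93.4 counts per library in all and were left apart.

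**Figure D1:**
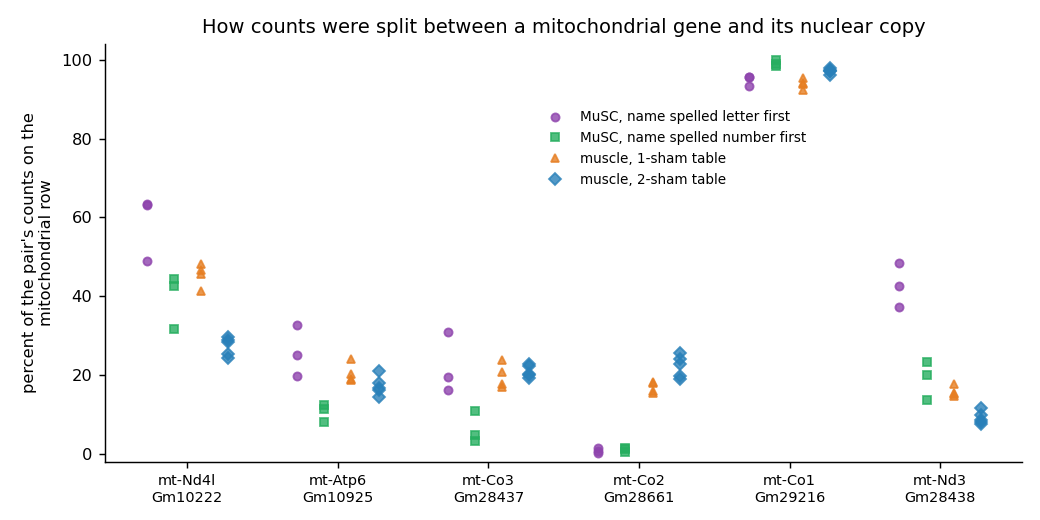
Percent of a pair's counts that the deposited tables put on the mitochondrial row, for the 6 pairs with counts on both rows; each point is 1 of 15 libraries, set apart by table and, for MuSCs, by the spelling of the library name. The mt-Co2 row held 0.31 to 1.51% in MuSCs and 15.5 to 25.5% in muscle, and the letter-first MuSC libraries stood above the number-first ones for mt-Nd4l, mt-Atp6, mt-Co3 and mt-Nd3.

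Mitochondrial rows took 1.2 to 16% of all counts as deposited, and 1.93 to 20.8% with the copies added. In MuSCs the share with copies was 7.42, 6.38 and 1.93% in after 5, 6 and 11, against 7.26, 7.93 and 8.95% in before 5, 6 and 11. After 5 stood within the range before, after 6 somewhat below it, and after 11 far below all other libraries. The group values were 5.24% ± 2.91 after and 8.05% ± 0.849 before (SD, n = 3 each). In muscle the share was 17.7, 19.2, 17, 16.5, 18.9 and 19.8% in transplanted 4, 14, 94, 5, 6 and 11, against 20.8, 16.8 and 12.7% in sham 3, 192 and 12. The shams held both the highest share of all 15 libraries, in sham 3, and the lowest of the muscle libraries, in sham 12, so the 6 transplanted libraries lay inside the range of the 3 shams. The group values were 18.2% ± 1.34 in transplanted muscle (SD, n = 6) and 16.8% ± 4.04 in sham muscle (n = 3). Every muscle library stood above every MuSC library. The 95% exact binomial intervals of the deposited shares reached 0.00486 to 0.0169 percentage points to either side, which covers counting error only and is far below the spread between libraries. No test was run on the share, and in bulk RNA fewer mitochondria-rich cells and less mitochondrial RNA per cell cannot be told apart.

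**Figure D2:**
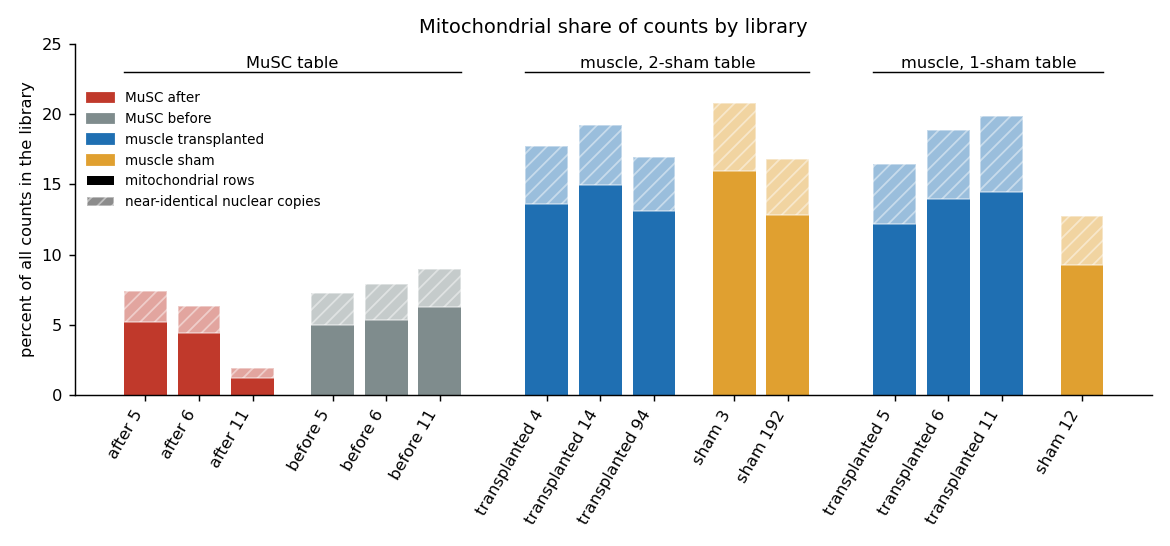
Percent of all counts on the mitochondrial rows (solid) and on their 7 near-identical nuclear copies (hatched), 1 bar per library, in the 3 deposited tables. After 11 reached 1.93% against 6.38 to 8.95% in the other MuSC libraries, and sham 12 reached 12.7%, the lowest of the muscle libraries.

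Levels of different members can be compared only per length, and this was done in FPKM. The copies' counts were added to the member's, and the sum was scaled by the member's effective length. That length was taken from the member's deposited count and FPKM. The 12 members over 500 bases were used. The 3 shorter ones were left out because their effective length was small and varied between libraries, down to 7.35 bases for mt-Atp8. Transcripts of complex IV led in sham muscle: mt-Co2 averaged 42178 ± 12141 FPKM and mt-Co1 39233 ± 9692 FPKM. mt-Atp6 (33528 ± 10283) and mt-Co3 (32397 ± 4658) followed. In every sham library mt-Co2 was highest and mt-Co1 next, with mt-Atp6 and mt-Co3 below both. The order of mt-Atp6 and mt-Co3 was the other way round in sham 12. No test was made of the order of members. Complex I transcripts spread more widely in sham muscle: mt-Nd1 averaged 19538 ± 4636 FPKM, mt-Nd4 16308 ± 5602, mt-Nd2 13441 ± 3727, mt-Nd6 7168 ± 2529 and mt-Nd5 5014 ± 1857 FPKM. mt-Cytb, the complex III member, stood beside mt-Nd1 at 19351 ± 5879 FPKM. The ribosomal RNAs came last, mt-Rnr1 at 1306 ± 310.3 and mt-Rnr2 at 1099.9 ± 295 FPKM (mean ± SD, n = 3), below every messenger RNA in this group. The highest mean was 38.3 times the lowest in sham muscle and 25.1 times in MuSCs before.

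The same order held broadly in the other groups. mt-Co2 averaged 15828 ± 9308 FPKM in MuSCs after, 23925 ± 2143 in MuSCs before and 43694 ± 3999 in transplanted muscle. It was the first by mean in MuSCs after, MuSCs before and sham muscle, and second to mt-Co1 (44526 ± 5788 FPKM) in transplanted muscle. There mt-Co2 stood above mt-Co1 in every transplanted library of the 2-sham table and below it in every one of the 1-sham table. mt-Nd5 ranked 10 of 12 in all 4 groups, and mt-Rnr1 and mt-Rnr2 took the ranks 11 and 12 in all 4. mt-Nd6 is the only messenger RNA that is read from the light strand, and it averaged 2313 ± 1138 FPKM in MuSCs after and 3382 ± 766 in MuSCs before, a rank of 9 of 12 in both. How ribosomal RNA was handled in the library preparation is not stated beyond the kit's name, and its part in these low levels was not tested.

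The first comparison set MuSCs that had stayed outside the transplant, taken after it, beside MuSCs of the same mice taken earlier. With the copies added, all 15 measured members had a negative log2 fold change, from -0.82 for mt-Nd4l to -0.18 for mt-Nd3, with a median of -0.54. The median over all 13506 genes tested was 0.02, and 48.6% of them were negative. No member passed the threshold of 0.05 on the adjusted p of edgeR's quasi-likelihood test, where 0% of all genes did, and 0 members had an unadjusted p under 0.05, where 305 of all genes (2.26%) did. DESeq2, as deposited, called 16 genes (0.118%) and 0 members. As deposited, edgeR gave a median of -0.59 (-1.09 for mt-Co2 to 0.26 for mt-Nd3), with 12 members negative and mt-Atp6, mt-Co3 and mt-Nd3 positive. After 11 carried much of this: without it the median of the members was -0.15, still negative for all 15, beside 46.2% of all genes. CPM below is scaled by the library's TMM size within the comparison, and values after ± in brackets are SEs of the log2 fold change.

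Among the complex I members, mt-Nd1 (MT:2751-3707) had 6344, 5985 and 969.7 CPM in after 5, 6 and 11, against 5739, 6897 and 7763 CPM in before 5, 6 and 11. After 5 and 6 lay within the range before, and after 11 lay 6.75-fold below the mean of the other 5 libraries. The log2 fold change of mt-Nd1 was -0.62 ± 0.66 (SE; adjusted p = 0.87, edgeR). mt-Nd4 (MT:10167-11544) had 4895, 3598 and 817 CPM in after 5, 6 and 11, against 3278, 4587 and 6185 CPM in before 5, 6 and 11 (-0.59 ± 0.64). mt-Nd4l (MT:9877-10173) had 689, 559 and 142 CPM in after 5, 6 and 11, against 537, 784 and 1128 CPM in before 5, 6 and 11 (-0.82 ± 0.59). For both, after 5 and 6 again lay within the range before and after 11 stood below every other library. mt-Nd2 (MT:3914-4951) had 2730.0, 3781 and 1413 CPM in after 5, 6 and 11, against 2732, 4188 and 3411 CPM in before 5, 6 and 11 (-0.38 ± 0.43). mt-Nd5 (MT:11742-13565) had 4063, 3875 and 1493 CPM in after 5, 6 and 11, against 3090.5, 4728 and 5393 CPM in before 5, 6 and 11 (-0.49 ± 0.47). mt-Nd6 (MT:13552-14070), the light-strand transcript, had 815, 809.9 and 347 CPM in after 5, 6 and 11, against 666, 1000.5 and 1103 CPM in before 5, 6 and 11 (-0.49 ± 0.41). The groups overlapped for all 3, with after 11 lowest each time. mt-Nd3 (MT:9459-9806) was the exception among the complex I members, at 606, 1377 and 1033 CPM in after 5, 6 and 11, against 902, 1643 and 881 CPM in before 5, 6 and 11 (-0.18 ± 0.42), where after 11 lay between the other libraries of its group. As deposited, the MT row of mt-Nd3 had 82.7, 666 and 441 CPM in after 5, 6 and 11, against 210.3, 610.1 and 176 CPM in before 5, 6 and 11, and its fold change was 0.26 ± 0.78, of the opposite sign.

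The complex IV members were the most abundant by counts. mt-Co1 (MT:5328-6872), the catalytic core of the complex, had 18879.6, 21642 and 3911 CPM in after 5, 6 and 11, against 21945, 23665 and 22119.6 CPM in before 5, 6 and 11. All 3 values after lay below all 3 before, after 5 and 6 by little, and the fold change was -0.61 ± 0.63 (adjusted p = 0.87, edgeR). mt-Co3 (MT:8607-9390) had 5919.9, 7031 and 3796 CPM in after 5, 6 and 11, against 7652, 9004 and 7775 CPM in before 5, 6 and 11, again without overlap (-0.54 ± 0.37; adjusted p = 0.87). These 2 of 15 members did not overlap between the groups, beside 2.98% of all genes with the same direction and no overlap as deposited. mt-Co2 (MT:7013-7696), which binds cytochrome c, had 8745, 10091 and 2624 CPM in after 5, 6 and 11, against 8563, 11908 and 10581 CPM in before 5, 6 and 11 (-0.53 ± 0.54). As deposited, the MT row of mt-Co2 held only 33.4, 73.1 and 36.7 CPM in after 5, 6 and 11, against 107, 36.9 and 160.1 CPM in before 5, 6 and 11 (-1.09 ± 0.57), in which after 11 no longer stood apart. As deposited, mt-Co1 alone of the 15 members did not overlap.

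mt-Cytb (MT:14145-15288), the only complex III subunit encoded in mitochondria, had 6271, 5093 and 1133 CPM in after 5, 6 and 11, against 4635, 6891 and 7323 CPM in before 5, 6 and 11 (-0.59 ± 0.62). Its pattern was that of mt-Nd1, with after 11 5.33-fold below the mean of the others. Of the complex V members, mt-Atp6 (MT:7927-8607) had 5019.6, 5413 and 3169.6 CPM in after 5, 6 and 11, against 4262, 6945 and 5849 CPM in before 5, 6 and 11 (-0.33 ± 0.38). mt-Atp8 (MT:7766-7969), which shares 43 bases with mt-Atp6, had 487, 419 and 319.7 CPM in after 5, 6 and 11, against 305, 603 and 525 CPM in before 5, 6 and 11 (-0.22 ± 0.35). After 11 was the lowest library for mt-Atp6 but not for mt-Atp8, where before 5 was lower. Among the ribosomal RNAs, mt-Rnr1 (MT:70-1024) had 488, 592 and 210.2 CPM in after 5, 6 and 11, against 448, 678 and 851 CPM in before 5, 6 and 11 (-0.62 ± 0.45). mt-Rnr2 (MT:1094-2675) had 1142, 843 and 375 CPM in after 5, 6 and 11, against 845, 1224 and 1629.6 CPM in before 5, 6 and 11 (-0.65 ± 0.47). After 11 was the lowest library for both ribosomal RNAs, and after 5 and 6 lay within or at the edge of the range before.

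**Figure D3:**
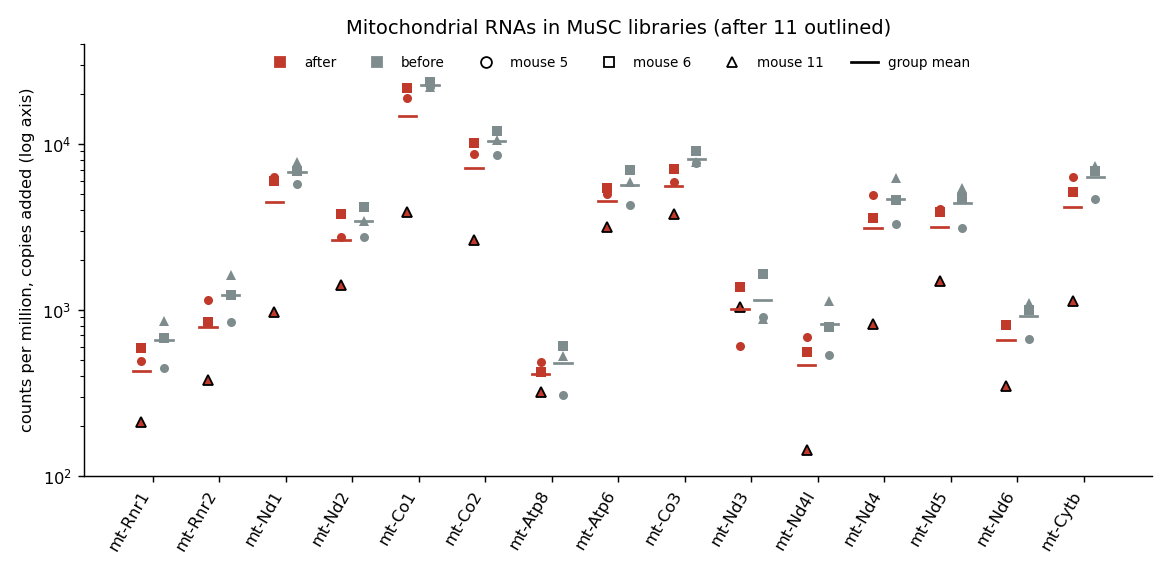
CPM (log axis, nuclear copies added) of the 15 measured mitochondrial RNAs in the MuSC libraries, after left of before for each gene; symbols give the mouse, bars the group mean, and the outlined triangle is after 11. After 11 was the lowest of the 6 libraries for 13 of the 15, but not for mt-Atp8 and mt-Nd3. How many of all genes were lowest in after 11 was not counted, and it also had the fewest detected genes (17873).

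After 11 was thus low in most members but not evenly so. Against the mean of the other 5 MuSC libraries it held 14.8% of their mt-Nd1, 18.1% of their mt-Co1, 18.1% of their mt-Nd4 and 18.8% of their mt-Cytb. In contrast it held 50.8% of their mt-Co3, 57.7% of their mt-Atp6, 68.4% of their mt-Atp8 and 95.5% of their mt-Nd3. The 4 best kept genes are neighbours on the circle, in the order mt-Atp8, mt-Atp6, mt-Co3 and mt-Nd3 between MT:7766 and MT:9806. The make-up of the mitochondrial counts shifted with this: the complex V members took 16% of them in after 11 and 6.96 to 8.91% in the other 5. mt-Co1 took 18% in after 11 and 26.8 to 33.5% in the others, and mt-Nd3 4.75% and 0.904 to 1.94%. These contrasts were drawn after the library was seen to stand apart, so they have no test.

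Within each mouse the picture differed. In mouse 5, 4 of 15 members were lower after than before (median log2 difference 0.24, range -0.57 for mt-Nd3 to 0.67 for mt-Atp8). In mouse 6 all 15 were lower after, within a narrow range (median -0.30, -0.54 to -0.13). In mouse 11, 14 of 15 were lower after (median -2.01), from -3.0 for mt-Nd1 to 0.23 for mt-Nd3. Members lower after in all 3 mice were mt-Nd2, mt-Co1 and mt-Co3, 3 of 15, where 10.3% of all genes were lower after in all 3 as deposited. For mt-Nd2 the log2 difference in mouse 5 was only -0.00089, so its place among them rests on almost no difference. In mouse 5 both libraries are spelled number first and in mouse 6 both letter first, whereas in mouse 11 the library after is letter first and the library before number first.

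The nuclear partners of these genes did not follow them in after 11. The 80 nuclear-encoded subunits of complexes I to V that were listed took 1.06, 2.27 and 2.54% of all counts in after 5, 6 and 11, against 1.49, 2.17 and 1.53% in before 5, 6 and 11, so after 11 was the highest library. The ratio of mitochondrial to nuclear messenger RNA for these complexes was 0.742 in after 11 and 2.76 to 6.83 in the other 5. The letter-first libraries held 2.17 to 2.54% on these subunits and the number-first libraries 1.06 to 1.53%, without overlap, so this share moved with the spelling as well. Over the comparison, 35 of 38 complex I subunits had a positive log2 fold change (median 0.34), 3 of 4 of complex II, 6 of 9 of complex III, 9 of 13 of complex IV and 13 of 15 of complex V, beside 51.4% of all genes, and 0 of the 79 tested passed. Without after 11, 24 of 38 complex I subunits were positive, with a median of 0.04, beside 53.7% of all genes. With the spelling as a term in the fit the direction turned: 2 of 38 were positive for complex I (median -0.16), 0 of 4 for II, 0 of 9 for III, 1 of 13 for IV and 2 of 15 for V, beside 47% of all genes, while all 15 mitochondrial members stayed negative (median -0.52 with the copies added). The largest and smallest signed test statistics of these lists belonged to Ndufa12 (0.56 ± 0.46) and Ndufs1 (-0.63 ± 0.35), Sdhb (0.63 ± 0.57) and Sdha (-0.35 ± 0.24), Uqcr11 (0.74 ± 0.68) and Uqcrc2 (-0.36 ± 0.27), Cox4i1 (0.70 ± 0.67) and Cox8b (-1.23 ± 0.75), and Atp5g2 (0.67 ± 0.53) and Atp5pb (-0.35 ± 0.27). Of the 78 mitochondrial ribosomal proteins, 68 were positive, with Mrpl24 (0.60 ± 0.38) and Mrpl47 (-0.53 ± 0.34) at the ends, and 0 passed. With the spelling as a term 32 of the 78 were positive.

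Of the 9 genes that transcribe the mitochondrial genome or end its transcription, 8 had a negative fold change after transplantation and 0 passed. Polrmt, the polymerase, averaged 38.7 ± 12.5 CPM after and 27.2 ± 5.16 CPM before (0.51 ± 0.34). Tfam, which packs mitochondrial DNA and starts transcription, averaged 33.3 ± 3.11 CPM after and 36.7 ± 6.45 CPM before (-0.14 ± 0.26), and the initiation factor Tfb2m 24.2 ± 13.4 CPM after and 34.7 ± 10.2 CPM before (-0.52 ± 0.48). Lrpprc, which stabilises mitochondrial messenger RNA, averaged 86.6 ± 39 CPM after and 137 ± 48.2 CPM before (-0.66 ± 0.43). For replication, the DNA polymerase Polg averaged 62.9 ± 15.6 CPM after and 56.5 ± 2.06 CPM before (0.15 ± 0.27) and the helicase Twnk 35.1 ± 7.11 CPM after and 31.8 ± 2.06 CPM before (0.14 ± 0.27). Ppargc1a, a coactivator that drives mitochondrial biogenesis, was low in all 6 libraries, at 4.17 ± 2.28 CPM after and 4.21 ± 2.51 CPM before (-0.02 ± 0.63). Lars2, the mitochondrial leucyl-tRNA synthetase, averaged 166 ± 101 CPM after and 101 ± 30.9 CPM before (0.71 ± 0.55) and moved across libraries with Rn18s-rs5, a row of cytosolic 18S ribosomal RNA: in after 11 they held 219.6 and 2641 library CPM, and in after 5 they held 59 and 773. Of the other lists, 9 of 13 replication genes, 17 of 34 RNA-processing genes, 9 of 17 tRNA synthetases, 6 of 12 translation factors and 3 of 7 biogenesis regulators were positive, and 0 passed. With the spelling as a term these counts were 10, 9, 5, 3 and 5, and 1 of the 9 transcription genes was positive. At their ends stood Tefm (-0.46 ± 0.33) below Polrmt, Tk2 (0.47 ± 0.42) and Rrm2b (-0.60 ± 0.62), Ptcd1 (0.50 ± 0.34) and Mtpap (-0.59 ± 0.34), Vars2 (0.50 ± 0.33) and Nars2 (-0.72 ± 0.32), Tsfm (0.49 ± 0.49) and Mtif2 (-0.58 ± 0.51), and Nrf1 (0.40 ± 0.30) and Ppargc1b (-0.53 ± 0.38).

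Some marker lists of other cells stood apart in after 11, with its myofibre and adipocyte sums the lowest and its fibroadipogenic sum the highest. Its endothelial, macrophage and erythroid sums lay within the range of the other MuSC libraries. The 10 myofibre markers summed to 1844 library CPM in after 11, 5193 to 5729.8 in the other libraries after and 3583 to 10762 before, and 8 of the 9 tested had a negative fold change. MuSC markers summed to 4050.3 in after 11, within the 2536 to 4943 of the others. Fibroadipogenic markers summed to 809 in after 11, against 381 to 479 in the others. This difference lay mostly in Gsn, at 660 in after 11 and 219 to 274 in the others, while Dcn and Lum were at 0 in all 6. Endothelial and macrophage markers stayed at or below 7.18 in all 6, and Adgre1, which defines macrophages, was at 0 in all 6. Adipocyte markers summed to 877, 849.6 and 70.1 in after 5, 6 and 11, against 219.6 to 282 before, most of it Car3, which muscle also expresses, while Adipoq stood at or below 0.0954 in all 6. Erythroid markers summed to at most 0.282. The part of any of these cells in the mitochondrial values was not tested.

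The second comparison asked how quadriceps muscle of transplanted mice differed from that of sham mice. The table entered the fit as a term, so only differences within a table counted. All 15 members had a positive log2 fold change, from 0.19 for mt-Atp6 to 0.38 for mt-Rnr1, with a median of 0.26, where 49.8% of all 14369 genes tested were positive and their median was -0.00074. As deposited, all 15 were positive too, from 0.02 for mt-Nd3 to 0.42 for mt-Co3, with a median of 0.26. No member passed, and 0% of all genes did (DESeq2, as deposited, called 6 genes, 0.0417%, and 0 members). At an unadjusted p under 0.05, edgeR gave 2 of 15 members, mt-Rnr1 and mt-Nd4l, beside 7.08% of all genes. The groups overlapped for all 15 members. The values moved with single shams. Without sham 12 the median was 0.05, with 9 of 15 positive, beside 51% of all genes. Without sham 3 it was 0.39, with 15 of 15 positive, beside 7178 of 14712 genes.

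The difference was wider in the 1-sham table, which holds 1 sham. There, mt-Co1 had 64687, 63079 and 71295 CPM in transplanted 5, 6 and 11, against 35143 CPM in sham 12. In the 2-sham table it had 48978, 55356 and 46630 CPM in transplanted 4, 14 and 94, against 60096 and 46308 CPM in sham 3 and 192, where sham 3 stood above all 3 transplanted libraries. Over both tables the fold change of mt-Co1 was 0.27 ± 0.20 (SE; adjusted p = 0.78, edgeR). Of the other complex IV members, mt-Co2 had 16539, 19367 and 21005 CPM in transplanted 5, 6 and 11, against 11725 CPM in sham 12, and 18839, 18608 and 15799.8 CPM in transplanted 4, 14 and 94, against 20725 and 15736 CPM in sham 3 and 192 (0.23 ± 0.18). mt-Co3 had 21185, 21934 and 25809.9 CPM in transplanted 5, 6 and 11, against 13458 CPM in sham 12, and 16058, 16860.5 and 15167 CPM in transplanted 4, 14 and 94, against 17818 and 14989 CPM in sham 3 and 192 (0.26 ± 0.17). Both again showed sham 12 below every library of its table, and sham 3 above every library of its own. In the 1-sham table sham 12 was below all 3 transplanted libraries for 15 of 15 members. In the 2-sham table both shams were below all 3 transplanted libraries for 1 of 15, mt-Nd4l. The same was not counted over all genes, so neither number can be read as particular to the members. Fitted alone, the 1-sham table gave a median of 0.70 over the members, a value given with no test because it rests on 1 sham library. The 2-sham table alone gave a median of 0.04, and 0 of 15 members had an unadjusted p under 0.05, beside 2.85% of all genes.

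Among the complex I members, mt-Nd4l ranged over 913 to 1267 CPM over the 6 transplanted libraries (median 1077), against 929, 986 and 707 CPM in sham 3, 192 and 12 (0.32 ± 0.13; unadjusted p = 0.037 and adjusted p = 0.69, edgeR). As deposited, the same gene gave 0.20 ± 0.14. mt-Nd1 ranged over 12953 to 16063 CPM over the 6 transplanted libraries (median 15086), against 15083, 13475 and 9057 CPM in sham 3, 192 and 12 (0.30 ± 0.15). mt-Nd4 ranged over 14055 to 22323 CPM over the 6 transplanted libraries (median 19139), against 22238, 18663 and 10259.7 CPM in sham 3, 192 and 12 (0.28 ± 0.16). For mt-Nd1 and mt-Nd4, sham 12 was the lowest of all 9 libraries and sham 3 lay inside the transplanted range. mt-Nd2 ranged over 8268 to 12745 CPM over the 6 transplanted libraries (median 10339), against 11856, 10662 and 6497 CPM in sham 3, 192 and 12 (0.23 ± 0.14). mt-Nd5 ranged over 5249 to 9660.4 CPM over the 6 transplanted libraries (median 7574), against 9379.6, 8726 and 4075 CPM in sham 3, 192 and 12 (0.22 ± 0.13). mt-Nd6 ranged over 1428 to 2181 CPM over the 6 transplanted libraries (median 1737), against 2029, 1799.6 and 1019 CPM in sham 3, 192 and 12 (0.26 ± 0.14). For these 3 the sham median lay above the transplanted median, although the fold changes within tables were positive. mt-Nd3 ranged over 1055 to 1842 CPM over the 6 transplanted libraries (median 1405), against 1203, 1148 and 1058 CPM in sham 3, 192 and 12 (0.25 ± 0.15), with sham 12 at the level of the lowest transplanted library. As deposited, mt-Nd3 gave 0.02 ± 0.22.

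mt-Cytb of complex III ranged over 15367 to 19055 CPM over the 6 transplanted libraries (median 18026), against 20791, 16106 and 10743 CPM in sham 3, 192 and 12 (0.19 ± 0.19). In complex V, mt-Atp6 ranged over 11831 to 16066 CPM over the 6 transplanted libraries (median 14044), against 16409.6, 12807 and 8804 CPM in sham 3, 192 and 12 (0.19 ± 0.19), and mt-Atp8 ranged over 356 to 857 CPM over the 6 transplanted libraries (median 600.1), against 428, 400.2 and 547 CPM in sham 3, 192 and 12 (0.24 ± 0.17). For mt-Cytb and mt-Atp6 the highest library was sham 3 and the lowest sham 12, while for mt-Atp8 all shams lay inside the transplanted range. The ribosomal RNA mt-Rnr1 ranged over 882 to 1391 CPM over the 6 transplanted libraries (median 1145), against 1045, 659 and 795 CPM in sham 3, 192 and 12 (0.38 ± 0.17; unadjusted p = 0.044 and adjusted p = 0.70, edgeR). mt-Rnr2 ranged over 1335 to 2016 CPM over the 6 transplanted libraries (median 1676), against 1792, 1241 and 1049 CPM in sham 3, 192 and 12 (0.32 ± 0.19). mt-Rnr1 was the member with the largest fold change, with sham 192 and 12 below all transplanted libraries and sham 3 among them.

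**Figure D4:**
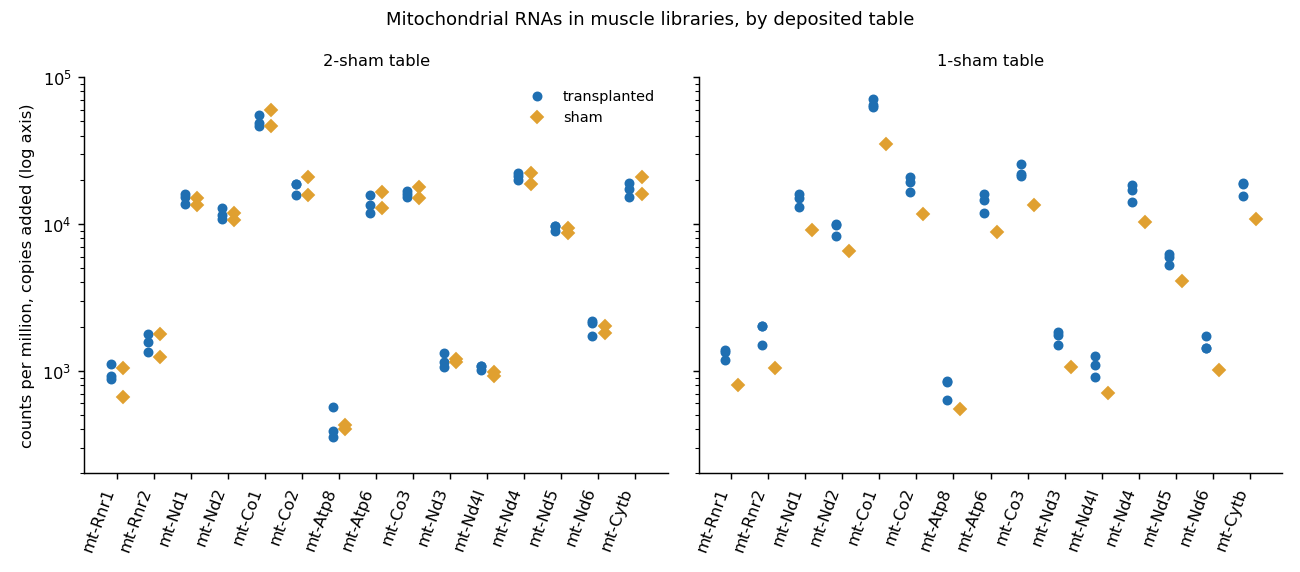
CPM (log axis, nuclear copies added) of the 15 measured mitochondrial RNAs in each muscle library, transplanted left of sham, in the 2-sham table (left) and the 1-sham table (right). Sham 12 lay below all 3 transplanted libraries of its table for 15 of 15 genes, and both shams of the other table did so for 1 of 15. The same was not counted over all genes.

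The 2 muscle tables differed in the make-up of their mitochondrial counts, whatever the surgery. mt-Nd5 took 2.92 to 3.55% of mitochondrial counts in the 1-sham table and 4.65 to 5.43% in the 2-sham table. mt-Nd4 took 7.92 to 8.93% of mitochondrial counts in the 1-sham table and 11 to 12.1% in the 2-sham table. mt-Co3 took 11.3 to 12.1% of mitochondrial counts in the 1-sham table and 8.65 to 9.21% in the 2-sham table, and mt-Co1 30.6 to 36.5% of mitochondrial counts in the 1-sham table and 26.4 to 29.8% in the 2-sham table. In all, 5 of 15 members (mt-Rnr1, mt-Co1, mt-Co3, mt-Atp8 and mt-Nd3) had a higher share in every library of the 1-sham table, 4 (mt-Nd2, mt-Nd4, mt-Nd5 and mt-Nd6) a lower share in every library, and 6 overlapped. Fragments were also shorter in the 1-sham table, as given above. Each table holds other mice, so table, mice and anything that came with them cannot be told apart, and no test was made of this contrast.

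In the muscle comparison nearly all nuclear-encoded subunits had fold changes of the same sign as the mitochondrial members. Of complex I, 38 of 38 had a positive fold change (median 0.20), of complex II 4 of 4, of complex III 9 of 9, of complex IV 11 of 13 and of complex V 15 of 15, and 0 passed, against 49.9% positive over all genes as deposited. The largest and smallest signed test statistics of these lists belonged to Ndufb7 (0.28 ± 0.12) and Ndufs5 (0.02 ± 0.13), Sdhc (0.20 ± 0.14) and Sdhd (0.13 ± 0.15), Cyc1 (0.30 ± 0.18) and Uqcrfs1 (0.17 ± 0.17), Cox6a2 (0.30 ± 0.13) and Cox8a (-0.31 ± 0.19), and Atp5d (0.28 ± 0.15) and Atp5l (0.11 ± 0.16). Without sham 12 the counts turned: 12 of 38, 0 of 4, 1 of 9, 3 of 13 and 3 of 15 were positive, beside 51% of all genes. Of the 78 mitochondrial ribosomal proteins 72 were positive, with Mrps17 (0.26 ± 0.08) and Mrpl50 (-0.02 ± 0.10) at the ends, and 41 without sham 12. The lists of transcription (4 of 9), replication (4 of 13), RNA processing (26 of 34), tRNA synthetase (12 of 17), translation factor (10 of 12) and biogenesis (7 of 8) genes had these positive members and 0 that passed. Without sham 12 the positive members were 3, 8, 20, 7, 2 and 4. At their ends stood Mterf1a (-0.54 ± 0.36) below Polrmt, Ssbp1 (-0.20 ± 0.11) below Twnk, Prorp (0.30 ± 0.11) and Cdk5rap1 (-0.14 ± 0.13), Aars2 (0.37 ± 0.10) above Lars2, Tsfm (0.30 ± 0.13) and Mtrf1l (-0.22 ± 0.17), and Esrra (0.25 ± 0.14) and Gabpb1 (-0.19 ± 0.15).

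In muscle, Polrmt averaged 18.4 ± 1.41 CPM with transplant and 16.9 ± 0.756 CPM with sham surgery (0.14 ± 0.09), Tfam 47.3 ± 4.04 CPM with transplant and 48.1 ± 5.75 CPM with sham surgery (0.00 ± 0.10) and Tfb2m 57.8 ± 6.73 CPM with transplant and 62.2 ± 7.78 CPM with sham surgery (-0.06 ± 0.08) (SD, n = 6 and 3). Twnk averaged 37.8 ± 5.96 CPM with transplant and 29.2 ± 1.76 CPM with sham surgery (0.32 ± 0.11), without overlap between the groups (adjusted p = 0.69, edgeR; 1.15% of all genes were higher without overlap). Polg averaged 43.2 ± 3.1 CPM with transplant and 39.4 ± 2.87 CPM with sham surgery (0.12 ± 0.09), Lrpprc 96.3 ± 3.34 CPM with transplant and 92.8 ± 9.0 CPM with sham surgery (0.06 ± 0.08) and Ppargc1a 33.7 ± 4.66 CPM with transplant and 31.3 ± 7.56 CPM with sham surgery (0.18 ± 0.12). Lars2 averaged 159.7 ± 88.9 CPM with transplant and 298 ± 197 CPM with sham surgery (-1.01 ± 0.38), and stood at 582 library CPM in sham 12 against 48.6 to 243 in the other 8. Rn18s-rs5 stood at 13686 in sham 12 against 326 to 3901 in the others. Taking that row out of the total left the deposited mitochondrial share of sham 12 at 9.42%, beside 9.29% with it.

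Some marker lists of other cells also stood apart in sham 12. Its adipocyte, fibroadipogenic, macrophage and erythroid sums were the highest of all muscle libraries. Its myofibre and endothelial sums lay within the transplanted range. The 8 adipocyte markers summed to 929.8 to 1708 library CPM in the transplanted libraries, against 2257 in sham 12 and 1207 to 1919 in sham 3 and 192, and 8 of 8 had a negative fold change. Fibroadipogenic markers summed to 617 to 928 in transplanted muscle, against 1733 in sham 12 and 787 to 964 in sham 3 and 192, with 7 of 8 negative. Macrophage markers summed to 35.4 to 60.6 in transplanted muscle, against 81.7 in sham 12 and 44.3 to 46.5 in sham 3 and 192, with 6 of 6 negative. Erythroid markers summed to 46.5 to 152 in transplanted muscle, against 202 in sham 12 and 89.8 to 173 in sham 3 and 192, with 5 of 5 negative. Myofibre markers summed to 133389 to 153475 in transplanted muscle, against 144418 in sham 12 and 127807 to 135751 in sham 3 and 192, with 10 of 10 positive. Endothelial markers summed to 146 to 252 in transplanted muscle, against 232 in sham 12 and 193.2 to 221 in sham 3 and 192, with 4 of 6 positive. Without sham 12 the macrophage list turned, with 5 of 6 positive, and the endothelial list had 1 of 6 positive. There the adipocyte and erythroid lists were still negative throughout, 6 of 8 fibroadipogenic markers were negative and 8 of 10 myofibre markers positive. No marker of these lists was at 0 in a whole group, 0 passed, and their part in the mitochondrial values was not tested.

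The third comparison set sham muscle beside MuSCs before, as groups that had not been transplanted; tissue and deposited table cannot be told apart in it. With the copies added, 15 of 15 members were higher in muscle and passed the threshold, beside 33.4% of all 14542 genes in that direction. Their median log2 fold change was 1.59, and that of all genes was -0.02. No library of sham muscle overlapped with a library of MuSCs for any of the 15, where 36.6% of all genes as deposited were higher without overlap. CPM here is scaled within this comparison, so the same library has other values than above. As deposited, 13 of 15 passed, and scaling by library totals alone, which shifts the median of all genes by -0.78, left 9 of 15 (beside 21.8% of all genes), with mt-Atp8 and mt-Nd4l negative and mt-Nd3 called lower at -1.2. Leaving out 1 library at a time left 11 to 15 of the 15 past the threshold with the copies added. Without sham 3, sham 192 or before 5 the members lost were mt-Rnr2, mt-Atp8, mt-Nd3 and mt-Nd4l, and without sham 12 or before 11 some of these.

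The difference was widest for mt-Nd4 of complex I. mt-Nd4 rose to 30508, 25357 and 14442 CPM in sham 3, 192 and 12, against 2595, 3653 and 4956 CPM in before 5, 6 and 11, a log2 fold change of 2.65 ± 0.45 (adjusted p = 0.00074, edgeR). On the log2 scale mt-Nd2 rose by 2.28 ± 0.37 (adjusted p = 0.0006), mt-Nd1 by 1.67 ± 0.36, mt-Nd6 by 1.59 ± 0.33 and mt-Nd5 by 1.53 ± 0.41. mt-Nd4l had 1274, 1339.5 and 996 CPM in sham 3, 192 and 12, against 425, 624 and 904 CPM in before 5, 6 and 11 (0.89 ± 0.31; adjusted p = 0.029), and mt-Nd3 1649.8, 1559 and 1489 CPM in sham 3, 192 and 12, against 714, 1308 and 706 CPM in before 5, 6 and 11 (0.78 ± 0.30; adjusted p = 0.041). mt-Cytb of complex III had 28523, 21883 and 15121 CPM in sham 3, 192 and 12, against 3669, 5488 and 5867 CPM in before 5, 6 and 11 (2.12 ± 0.41). mt-Nd4 and mt-Cytb were thus further apart in counts between the tissues than mt-Nd3 and mt-Nd4l, a difference between members that was not tested. The effective length of mt-Nd3 was 76.7, 82.2 and 104.8 bases in sham 3, 192 and 12, against 107.9, 114.6 and 116 in before 5, 6 and 11. That of mt-Nd4l was 43.1, 47.5 and 66.6 bases in these shams, against 61.7, 67.2 and 68.5 in these MuSCs. The part of effective length in the counts of these short members was not tested.

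In complex IV, mt-Co1 had 82445, 62918 and 49467 CPM in sham 3, 192 and 12, against 17373, 18847 and 17722 CPM in before 5, 6 and 11 (1.85 ± 0.44; adjusted p = 0.0047, edgeR). mt-Co3 rose by 1.71 ± 0.35. mt-Co2 had 28433, 21380.5 and 16504 CPM in sham 3, 192 and 12, against 6779, 9484 and 8477 CPM in before 5, 6 and 11 (1.42 ± 0.38; adjusted p = 0.0091). The MT row of mt-Co2 as deposited had 6834, 4249.6 and 2622 CPM in sham 3, 192 and 12, against 84.8, 29.4 and 128 CPM in before 5, 6 and 11, a log2 fold change of 5.82 ± 0.66. Its copy Gm28661 gave 1.1 ± 0.37. In complex V, mt-Atp6 rose by 1.94 ± 0.39 and mt-Atp8 by 0.73 ± 0.29 (adjusted p = 0.049). The ribosomal RNAs rose least among members over 500 bases, mt-Rnr1 by 1.13 ± 0.31 and mt-Rnr2 by 0.93 ± 0.33, and they took 1.16 to 1.6% of mitochondrial counts in sham muscle and 1.97 to 3.01% in MuSCs before. The members that did not pass as deposited were mt-Nd3 (-0.49 ± 0.44) and mt-Nd4l (0.34 ± 0.30).

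**Figure D5:**
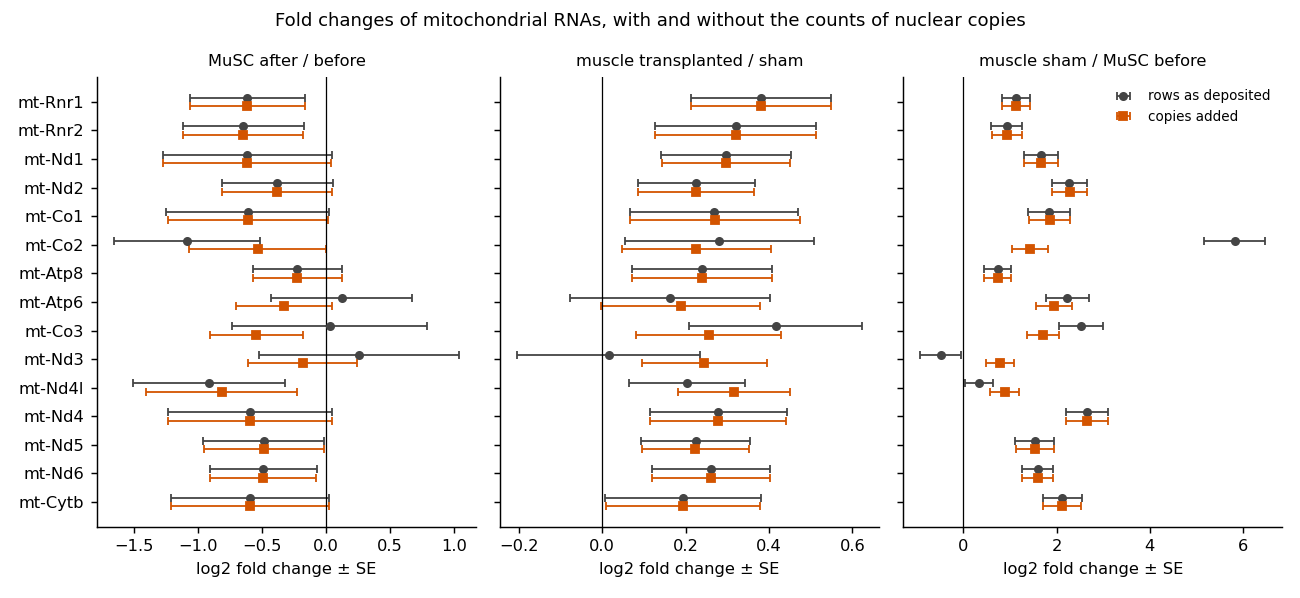
Log2 fold change ± SE (edgeR) of the 15 measured mitochondrial RNAs in the 3 comparisons, as deposited (circles) and with the counts of near-identical nuclear copies added (squares). Adding the copies turned mt-Atp6, mt-Co3 and mt-Nd3 negative in MuSCs and gave mt-Co2 a value of 1.42 in place of 5.82 between the tissues.

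Of the nuclear-encoded subunits, 28 of 38 of complex I were called higher in sham muscle and 0 lower, with 3 and 0 of 4 for complex II, 4 and 0 of 9 for complex III, 6 and 2 of 13 for complex IV and 6 and 0 of 15 for complex V, beside 33.4% of all genes called higher and 35.1% lower. Cox6a2, the complex IV subunit of heart and skeletal muscle, rose to 448 ± 17.2 CPM in sham muscle, against 10.7 ± 4.39 CPM in MuSCs (5.39 ± 0.36). Cox8a, the form of subunit 8 found in most tissues, fell to 21.9 ± 7.77 CPM in sham muscle, against 243 ± 128 CPM in MuSCs (-3.48 ± 0.43). The other ends of the lists were Ndufs4 (1.92 ± 0.20) and Ndufa7 (-0.14 ± 0.37), Sdha (2.09 ± 0.23) and Sdhd (0.40 ± 0.23), Uqcrc2 (1.47 ± 0.20) and Uqcrq (-0.17 ± 0.34), and Atp5pb (1.49 ± 0.21) and Atp5d (-0.46 ± 0.31). Mitochondrial ribosomal proteins went both ways, 16 of 78 called higher and 13 lower, with Mrpl42 (1.95 ± 0.21) and Mrps6 (-1.77 ± 0.30) at the ends. Of the transcription genes 4 of 9 were called higher and 0 lower, among them Tfam (1.18 ± 0.20) and Tfb2m (1.63 ± 0.24), while Polrmt gave 0.10 ± 0.20. Twnk (0.67 ± 0.17), Lars2 (2.36 ± 0.46) and Ppargc1a (3.66 ± 0.45) were higher and passed, and Polg (0.27 ± 0.17) and Lrpprc (0.23 ± 0.26) did not pass. In library CPM Lars2 stood at 186 to 582 in the shams and 77.9 to 124 in MuSCs before. In transplanted muscle (48.6 to 243) and MuSCs after (59 to 220) its ranges overlapped. Rn18s-rs5 stood at 2476 to 13686 in the shams and 940 to 1777 in MuSCs before, and its relation to the Lars2 call was not tested. Higher and lower calls were 5 and 1 of 13 for replication, 7 and 7 of 34 for RNA processing, 3 and 4 of 17 for tRNA synthetases, 7 and 1 of 12 for translation factors and 2 and 3 of 8 for biogenesis regulators. At their ends stood Mterf1a (-0.79 ± 0.42) below Tfb2m, Mgme1 (1.5 ± 0.21) and Dna2 (-3.25 ± 0.47), Tfb1m (2.05 ± 0.29) and Pus1 (-1.95 ± 0.24), Nars2 (-1.58 ± 0.20) below Lars2, Gfm2 (1.87 ± 0.19) and Tsfm (-0.94 ± 0.23), and Esrrg (5.98 ± 0.51) and Pprc1 (-1.61 ± 0.19). The markers of other cells differed widely between the tissues, with 10 of 10 myofibre, 8 of 8 adipocyte, 6 of 6 endothelial, 5 of 6 macrophage, 6 of 8 fibroadipogenic and 5 of 5 erythroid markers called higher in sham muscle, and their part in the mitochondrial values was not tested.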

How the data were processed

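Bulk RNA-seq tables of 15 libraries were used. Per the file headers, the authors deposited estimated counts, effective lengths, TPM and FPKM per gene in 3 tables. Per the labels' protocols, Trizol was used for extraction and the NEBNext Ultra RNA kit for the libraries. The submitters' processing notes name the builds GRCm38 and mm10, but no label or header states the aligner, the quantifier or the use of strand. The expected counts deposited by the authors were rounded and served for all tests, FPKM deposited by the authors for levels per length, and TPM deposited by the authors for 1 alternative. Columns that matched no labelled library, 3 in number, were not used.

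Samples were grouped by their titles. Each comparison was fitted across all genes with edgeR 4.0.16 (R 4.3.3; filterByExpr at a minimum count of 10, TMM, quasi-likelihood, 2-sided, Benjamini-Hochberg, threshold 0.05), with the table as a term in muscle. DESeq2 1.42.0, limma 3.58.1 on log2(TPM + 1), library totals, nuclear totals, no filter, the mouse as a block and leaving out each library were alternatives. The fit was tested on simulated data. Nuclear copies were found with blastn 2.17.0 against GENCODE transcripts. With the copies added, their counts were summed with those of the member before the filter and the fit.

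Named genes were all measured members, the genes of largest and smallest signed F statistic of each nuclear list, and 8 nuclear genes named in every comparison (Polrmt, Tfam, Tfb2m, Polg, Twnk, Lrpprc, Ppargc1a and Lars2). Markers, Gm copies and Rn18s-rs5 were named beside the results they touch. The members and lists were chosen with earlier results of these data known. The same mouse numbers label MuSCs before and after an autologous transplantation and so pair the libraries. Deviations from the group means correlated at 0.33 in mouse 5, 0.41 in mouse 6 and -0.48 in mouse 11. Between unlike mice, after 5 with before 11 gave 0.56 and after 11 with before 6 gave 0.62, which is higher. The rest gave -0.74 to -0.20. All positive values were between libraries whose names are spelled the same way, so these correlations do not show the pairing by mouse. Over all 105 pairs of libraries, a chi-square test of their counts gave at least 6.76 per degree of freedom, so no pair agreed within sampling noise. Python 3.11.15 with pandas 2.3.3, scipy 1.17.1, numpy 2.4.6 and matplotlib 3.10.9 served for the rest.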

Additional observations from a re-analysis of the deposited data

How the results depend on the processing

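Depth does not limit the mitochondrial values, but the number of libraries does: with 3 MuSC libraries a group and 1 or 2 shams a table, 1 library could move most values. After transplantation, the median of the members in MuSCs ranged from -0.73 to -0.15 over the fits that leave out 1 library (-0.74 to -0.15 with copies added), and 0 genes were called in any of them. In muscle the median ranged from 0.05 to 0.41 (0.05 to 0.39 with copies), the lowest without sham 12, and 0 to 4 genes were called. Between tissues, 8962 to 10645 genes were called (8956 to 10635 with copies), 11 to 13 members passed (11 to 15 with copies) and the median ranged from 1.52 to 1.85 (1.41 to 1.82 with copies). The difference in mitochondrial share ranged from -2.74 to -0.73 percentage points in MuSCs (-3.90 to -1.15 with copies), -0.69 to 2.64 in muscle (-0.61 to 3.43) and 5.51 to 8.84 between tissues (6.71 to 10.7).

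With the replicate block for the mouse, the median of the members in MuSCs was -0.67, 0 genes were called, and mt-Co3 had -0.19; the block changed no call in MuSCs. Transplanted muscle against MuSCs after, as paired mice, gave medians of 2.44 without and 2.60 with the block, and mt-Nd3 had 0.24 and 0.64.

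Of the alternatives tried for single members, 287 of 321 in MuSCs and 339 of 363 in muscle kept direction and call, and 34 and 24 turned the direction. Between tissues 233 of 267 kept both, 22 lost and 4 gained the call and 8 turned. The cause was not tested except where a setting's own construction shows it. In MuSCs mt-Atp6, mt-Co3 and mt-Nd3 had -0.33, -0.54 and -0.18 with copies added, -0.13, -0.41 and -0.16 by limma on TPM, and -0.39, -0.94 and -0.68 with a term for the spelling. With library totals mt-Atp6 had -0.0075 and mt-Co3 -0.13. Among number-first libraries mt-Atp8 had 0.24, mt-Atp6 -0.56, mt-Co3 -1.67, mt-Nd3 -1.21, mt-Nd4 0.061 and mt-Cytb 0.081, and mt-Atp6 with its copy 0.0012. Among letter-first libraries, with 1 library before, mt-Co2 had 0.57, mt-Atp6 -0.21, mt-Co3 -0.21 and mt-Nd3 -0.15. Leaving out 1 library gave mt-Atp6 -0.25 to 0.65, mt-Co3 -0.39 to 0.59 and mt-Nd3 -0.34 to 1.05 (-0.48 to 0.18 with its copy).

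In muscle mt-Nd3 had -0.083 with library totals and -0.12 by limma. In the 2-sham table alone mt-Co1 had -0.076, mt-Co2 -0.023, mt-Atp6 -0.21, mt-Nd3 -0.41 and mt-Cytb -0.11, and with copies mt-Co1 -0.086, mt-Co2 -0.045, mt-Atp6 -0.099, mt-Co3 -0.039 and mt-Nd3 -0.0067. Leaving out 1 library gave mt-Atp6 -0.20 to 0.57 (-0.092 to 0.38 with copies), mt-Co1 -0.070 to 0.48 (-0.080 to 0.49), mt-Co2 -0.016 to 0.58 (-0.038 to 0.42), mt-Nd3 -0.41 to 0.24 (-0.00034 to 0.34) and mt-Cytb -0.0995 to 0.39. mt-Co3 with its copy ranged from -0.033 to 0.42. Between tissues mt-Atp8 and mt-Nd4l had -0.015 and -0.41 with library totals and -0.27 and -0.011 by limma, and mt-Nd3 had 0.78 with its copy and -0.79 to 0.33 without 1 library.

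Library totals alone shifted the median of all genes by -0.11 in MuSCs, -0.11 in muscle and -0.78 between tissues, and limma on TPM by -0.16, -0.11 and -0.53; the tissue medians of the members were 0.89 and 1.04 under them. DESeq2 called 16 genes in MuSCs and 6 in muscle, and no filter gave 12 in muscle. Number-first libraries alone, with 1 library after, gave 43 calls (40 with copies). The 2-sham table alone gave 1 call and the 1-sham table alone, with 1 sham, 41, with member medians of 0.72 and 0.70 (with copies) in the 1-sham table. In these fits the lone library is assumed to vary like the others, so the calls say little of the condition. TPM in place of counts gave a share difference of -3.53 in MuSCs. It gave make-up differences, in percentage points, of -2.12 for complex I, 8.01 for complex V and -0.12 for mt-Nd6 in MuSCs, and -1.24 for complex V in muscle. Between tissues it gave 6.26 for complex IV, -11.9 for complex V, -0.24 for ribosomal RNA and 0.41 for mt-Nd6. Counts with 1 library left out gave -5.91 to -1.35 for complex IV and -0.13 to 0.84 for V there. For ribosomal RNA they gave -1.24 to -0.72, and for mt-Nd6 -0.26 to -0.10. The TPM values include mt-Atp8, whose effective length was 7.35 to 17.2 bases and which was left out of the levels per length. Its part in them was not tested. In counts, leaving out 1 library gave make-up differences in MuSCs of -0.83 to 1.93 for complex I, -1.84 to 0.23 for III, -4.72 to -0.16 for IV, 0.34 to 4.26 for V, -0.25 to 0.27 for ribosomal RNA and -0.00042 to 0.23 for mt-Nd6.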
